A study of Homo sapiens with 22 samples.

Results

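The genes of the epidermal growth factor (EGF) receptor family and its ligands were followed through 22 RNA sequencing libraries, each given the cell line name MDA-MB231. This line comes from a human breast cancer of the triple-negative class, which lacks the oestrogen and progesterone receptors and an amplified ERBB2 gene. The 10 genes were taken by symbol from count tables of 26485 symbols: the ligand genes AREG, EREG, HBEGF, TGFA, BTC, EGF and NRG1 and the receptor genes EGFR, ERBB2 and ERBB3. The study concerns the deacetylase HDAC6, and its libraries form 3 experiments. In the first, wild-type cells labelled Ctrl (n = 2, with DMSO, a solvent, as treatment) stand beside wild-type cells given Nexturastat A (n = 2, 7.65 µM over 2 days), both taken on day 2. In the next, taken on day 0, the groups are shCtrl (n = 3, genotype WT, a control hairpin) and the hairpins shHDAC6-1 and shHDAC6-2 (n = 3 each, genotype HDAC6 knockdown). In the last, taken on day 2, wild-type cells received DMSO, HPOB or Tubastatin A (n = 3 each) at doses that the sources used here do not give. Titles of the Tubastatin A libraries read TSA, and the treatment label was followed. Nexturastat A, HPOB and Tubastatin A are all hydroxamate inhibitors made to favour HDAC6. Whether the hairpin cells are pools or single clones is not given in the sources used here.

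Ligands of the EGF family are made as precursors in the cell membrane and are cut free by metalloproteases such as ADAM17. AREG (amphiregulin), TGFA and EGF bind EGFR, EREG (epiregulin), HBEGF and BTC (betacellulin) bind EGFR and ERBB4, and NRG1 (neuregulin) binds ERBB3 and ERBB4. ERBB2 has no known ligand of its own and acts as the partner of the other receptors, while ERBB3 has little kinase activity and signals through its partners to phosphatidylinositol 3-kinase. Triple-negative breast cancer cells are known for high EGFR and for making their own ligands.

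Libraries held between 31.2 and 85.9 M counts (M, mega). HDAC6 mRNA stood at 43.0, 50.1 and 26.1 counts per M counts (CPM) in shCtrl replicates 1, 2 and 3, at 11.8, 11.2 and 11.45 CPM with shHDAC6-1 and at 11.5, 12.9 and 14.0 CPM with shHDAC6-2, so each hairpin library lay below each control. In the knockdown experiment the 6 libraries of replicates 1 and 2, those of shCtrl among them, stood apart from the other 16. They held CDKN2A at 132 to 175 CPM and MTAP at 29.4 to 41.3 CPM, neighbouring genes that MDA-MB231 is known to have lost, and the insulin receptor substrate gene IRS4 at 303 to 640.2 CPM. In Ctrl, Nexturastat A and the compound experiment these genes reached at most 0.0320 CPM (CDKN2A and MTAP) and 0 CPM (IRS4). In replicate 3 CDKN2A stood at 0 CPM in shCtrl but at 8.84 and 29.1 CPM with the hairpins. AXL, a receptor kinase typical of MDA-MB231, lay at 17.0 to 33.4 CPM in the 6 libraries and 264 to 1654 CPM in the other 16. The first and last experiments differed too: NKX2-1, a lung and thyroid transcription factor gene, had 51.8 and 63.0 CPM in the Ctrl libraries but 0.751 to 1.55 CPM across the compound experiment. ESR1 and PGR, the oestrogen and progesterone receptor genes, stayed at or under 0.616 and 0.653 CPM in all 22 libraries. The cells of the experiments, called stocks here, are therefore described one by one, and replicate 3 of the knockdown experiment by itself.

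Of the ligand genes, AREG, EREG and BTC lie in 1 cluster on chromosome 4 (GRCh38, GENCODE release 29). EREG covers 74365143 to 74388751 and AREG, on the same strand, 74445134 to 74455009, which leaves 56382 bases between them. BTC lies beyond AREG on the opposite strand, at 74744759 to 74794686, and EGF farther along the chromosome at 109912884 to 110012266. HBEGF is on chromosome 5 (140332843 to 140346631) and TGFA on chromosome 2 (70447280 to 70554193). EGFR is on chromosome 7 (55019021 to 55211628), ERBB2 on chromosome 17 (39687914 to 39730426) and ERBB3 on chromosome 12 (56076799 to 56103505). EGFR overlaps EGFR-AS1, and ERBB2 overlaps MIEN1 and PGAP3, on the opposite strand. Whether the counting used strand is not given in the sources used here, so reads in those overlaps cannot be told apart.

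The promoters of AREG and EREG are shown because AREG passed the test under Nexturastat A, as described further on, and its neighbour EREG did not in the fit without trend removal, although the difference between the genes was not tested. Each is the stretch of 250 bases before the RefSeq start (GRCh38.p14, plus strand), chr4:74444886-74445135 for AREG and chr4:74364895-74365144 for EREG. Capitals mark TGACGTCA, the full cyclic AMP response element.
AREG: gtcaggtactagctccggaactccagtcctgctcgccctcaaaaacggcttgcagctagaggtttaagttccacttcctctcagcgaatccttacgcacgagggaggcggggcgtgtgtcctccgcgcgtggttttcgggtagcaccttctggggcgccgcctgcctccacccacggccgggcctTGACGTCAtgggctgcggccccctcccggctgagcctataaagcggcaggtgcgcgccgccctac
EREG: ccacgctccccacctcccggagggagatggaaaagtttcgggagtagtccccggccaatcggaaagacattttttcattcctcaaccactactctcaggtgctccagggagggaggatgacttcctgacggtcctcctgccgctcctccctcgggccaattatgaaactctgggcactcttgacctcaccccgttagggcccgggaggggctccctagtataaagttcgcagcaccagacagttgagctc
Both strands were searched for TGACGTCA, for the AP-1 site TGANTCA, for the GC box GGGCGG and for the core motif of NF-kB. In the AREG window TGACGTCA begins 65 bases before the start, a GC box lies on the minus strand and the NF-kB core occurs 2 times. The EREG window holds none of the 4. Of 34788 RefSeq promoters of this length, 1.6% hold TGACGTCA, 6.6% TGANTCA, 42.6% GGGCGG and 54.4% the NF-kB core. Promoters of 8 of the 10 genes were matched in the RefSeq table, and among them TGANTCA occurred in those of EGF and ERBB2. Such a match describes the letters in this window and says nothing of binding.

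The solvent-treated Ctrl cells of the first experiment were rich in EREG and EGFR mRNA. EREG stood at 479.6 and 429 CPM in the Ctrl libraries, TGFA at 183 and 180.5, NRG1 at 141 and 149, HBEGF at 116 and 122, and AREG at 56.5 and 55.55 CPM. EGFR stood at 298 and 242 CPM, ERBB2 at 85.4 and 79.7 and ERBB3 at 14.6 and 12.2 CPM, and EGF and BTC were the low ligands at 7.72 to 8.72 and 2.23 to 2.53 CPM. Levels of different genes were compared as CPM per kb of exon (the union of all annotated exons). On that scale the order in Ctrl was EREG (79.5 ± 6.23, SD, n = 2), HBEGF (39.5 ± 1.54), TGFA (36.6 ± 0.347), AREG (34.0 ± 0.407), EGFR (21.6 ± 3.19), NRG1 (12.8 ± 0.451), ERBB2 (7.998 ± 0.387), ERBB3 (1.48 ± 0.186), EGF (1.34 ± 0.115) and BTC (0.846 ± 0.0749). Among neighbours in this order, ERBB3 and EGF were the pair whose libraries overlapped. With the longest transcript as length the means of AREG and TGFA changed places.

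The DMSO cells of the last experiment held far less EREG. Its level was 27.5, 27.95 and 27.2 CPM, with no overlap with Ctrl, a log2 fold change against Ctrl of -4.10 ± 0.06 (SE; adjusted p = 3.54e-28, edgeR quasi-likelihood test). NRG1 (29.75, 31.9 and 31.5 CPM) had a log2 fold change of -2.28 ± 0.07, and TGFA (85.97, 80.7 and 73.7 CPM) had -1.24 ± 0.06. EGFR stood at 177, 147 and 161 CPM, a log2 fold change of -0.80 ± 0.09 (adjusted p = 1.3e-06). AREG (65.85, 71.7 and 68.3 CPM; 0.24 ± 0.07) and ERBB2 (101, 98.8 and 104 CPM; 0.24 ± 0.06) were higher in DMSO. All 10 genes passed the test, 2 higher and 8 lower, where 74% of the 15585 genes tested did (36.8% higher and 37.2% lower). Per length, AREG led in DMSO (41.6 ± 1.80 CPM per kb, SD, n = 3), followed by HBEGF (30.8 ± 1.38), TGFA (16.1 ± 1.24), EGFR (12.9 ± 1.18), ERBB2 (9.82 ± 0.258) and EREG (4.82 ± 0.0676), and no neighbours in the order of all 10 overlapped. With the longest transcript as length ERBB2 came before EGFR in each DMSO library, and its mean before that of TGFA. In bulk RNA, fewer cells of a type and less RNA per cell cannot be told apart, and neither can experiment and cell stock.

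In replicates 1 and 2 of shCtrl, libraries that hold CDKN2A and IRS4 mRNA, the family looked different again. EREG stood at 17.9 and 14.0 CPM, HBEGF at 17.3 and 17.2, TGFA at 13.3 and 13.8, NRG1 at 5.83 and 6.03 and AREG at 4.76 and 4.55 CPM. EGFR was at 28.4 and 36.1 CPM and ERBB3 at 29.1 and 36.4 CPM. Against Ctrl, 9 genes were lower and ERBB3 was higher, by 1.22 ± 0.155 (adjusted p = 9.5e-10, edgeR), where 76.8% of 17484 genes passed the test (41.7% higher and 35.1% lower). The differences were -4.91 ± 0.16 for EREG, -4.69 ± 0.15 for NRG1, -4.20 ± 0.49 for the rare BTC, -3.82 ± 0.14 for TGFA and -3.66 ± 0.16 for AREG, and EGFR had -3.14 ± 0.15. ERBB2, at 61.5 and 79.3 CPM, had the smallest (-0.30 ± 0.13, adjusted p = 0.0356). That call was lost with DESeq2 (adjusted p = 0.06), with voom (0.0623), with a filter at 5 CPM on the mean (0.238) and without Ctrl replicate 1 (0.247), Ctrl replicate 2 (0.108) or shCtrl replicate 1 (0.279). Per length ERBB2 led (6.83 ± 1.22 CPM per kb, SD, n = 2), before HBEGF (5.71 ± 0.0255) and ERBB3 (3.62 ± 0.566). AREG, EREG, TGFA and EGFR followed between 2.57 and 2.82 CPM per kb, with overlap from each to the next. Replicate 3 of shCtrl was unlike these 2 libraries, with EREG at 260 CPM, EGFR at 233, NRG1 at 142, HBEGF at 126, TGFA at 106 and AREG at 24.8 CPM, while ERBB3 stood at 3.67 CPM.

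**Figure D1:**
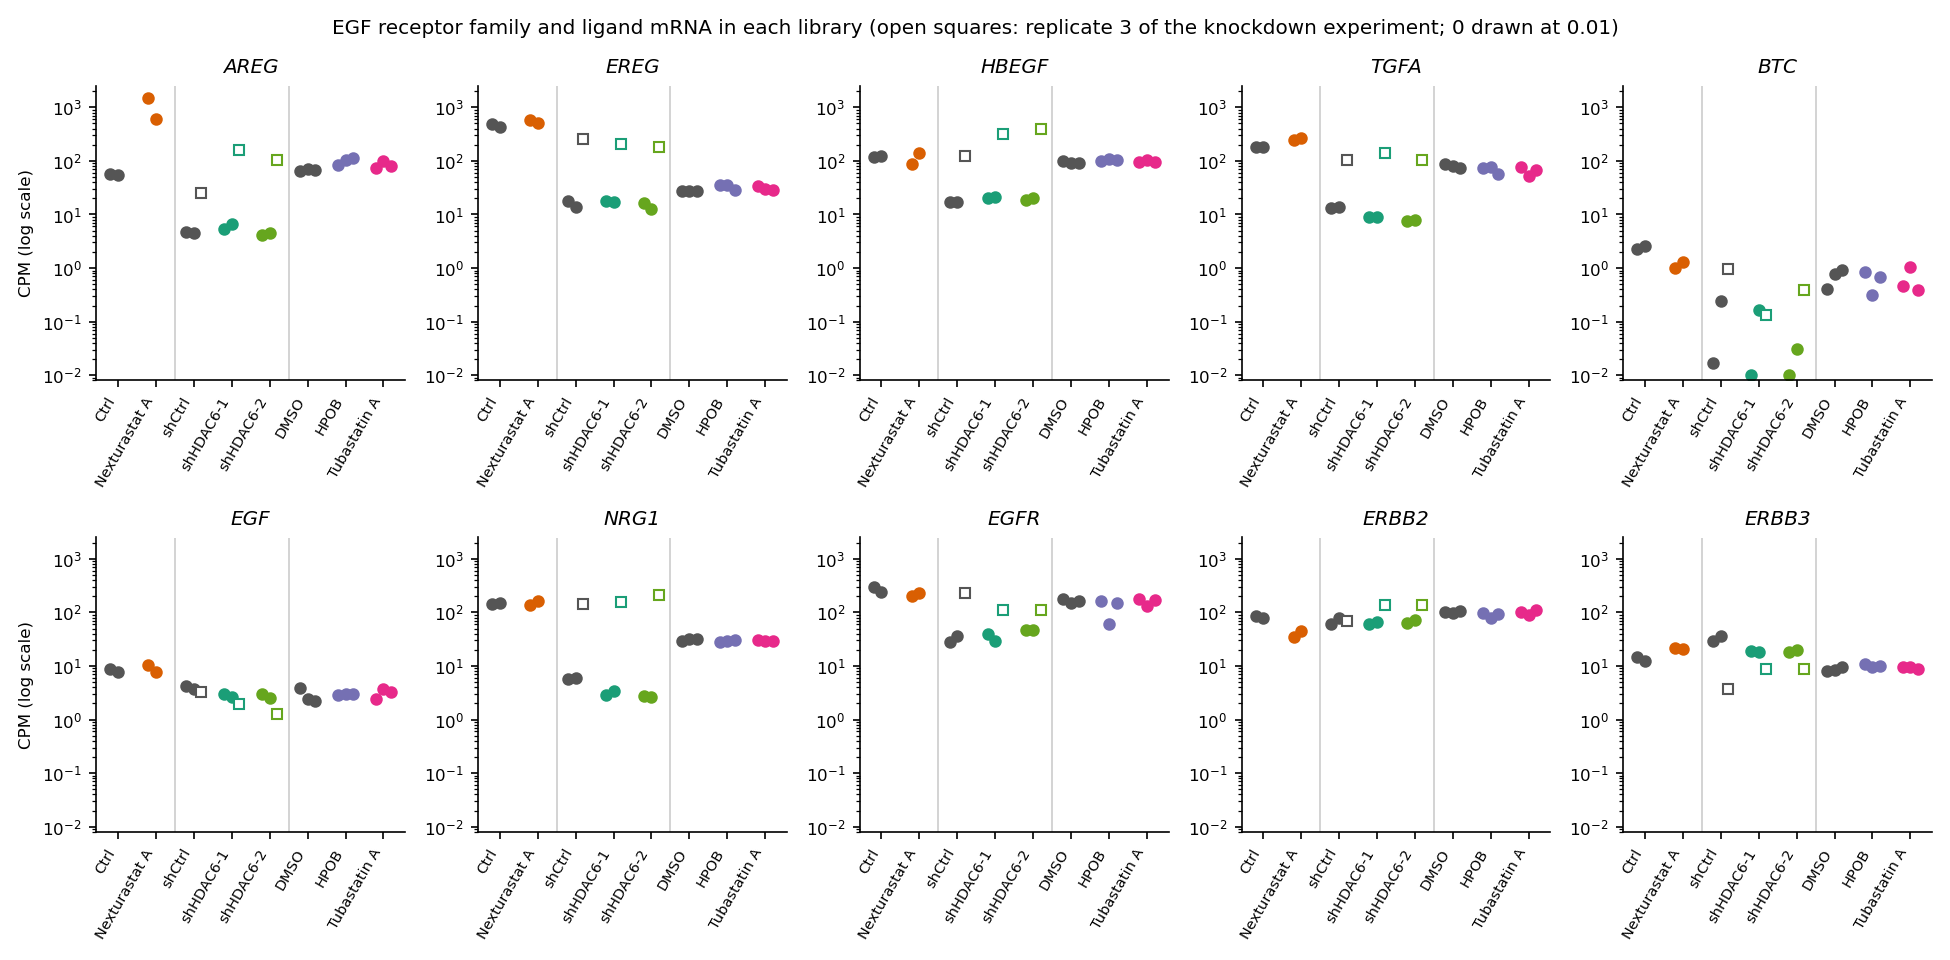
Level of each gene (CPM, log axis) in each of the 22 libraries by group, with 1 point per library, open squares for replicate 3 of the knockdown experiment and vertical lines between experiments. EREG sits between 429 and 577 CPM in the first experiment and between 27.2 and 35.3 CPM in the last, and AREG reaches 1466 CPM with Nexturastat A.

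The balance of ligand to receptor mRNA followed the stocks. The 7 ligands summed to 6.17 and 7.08 times the 3 receptors per length in Ctrl, 3.93 to 4.41 times in DMSO, 1.02 and 1.37 times in shCtrl replicates 1 and 2, and 5.33 times in shCtrl replicate 3. EREG made up 37.4% and 40.3% of the ligand sum in Ctrl and 4.91% to 5.03% in DMSO, where AREG made up 40.8% to 44.3%. In shCtrl replicates 1 and 2 HBEGF had the largest share, 36.6% and 38.1%. Among the receptors EGFR held 68.0% and 70.7% in Ctrl, 52.8% to 56.9% in DMSO and 72.4% in shCtrl replicate 3. In shCtrl replicates 1 and 2 it held 19.7% and 19.8%, with ERBB2 at 52.1% and 52.7% and ERBB3 at 27.6% and 28.1%. These values depend on the length used. With the longest transcript ERBB2 was the leading receptor in DMSO, at 51.5% to 55.0% against 41.1% to 45.2% for EGFR. It also led with HPOB (51.7% to 66.7% against 26.4% to 43.5%) and with Tubastatin A (51.2% to 54.9% against 40.3% to 44.8%). With the longest transcript the ratio was 5.32 and 6.03 in Ctrl, 3.12 to 3.48 in DMSO and 0.732 and 0.981 in shCtrl replicates 1 and 2.

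**Figure D2:**
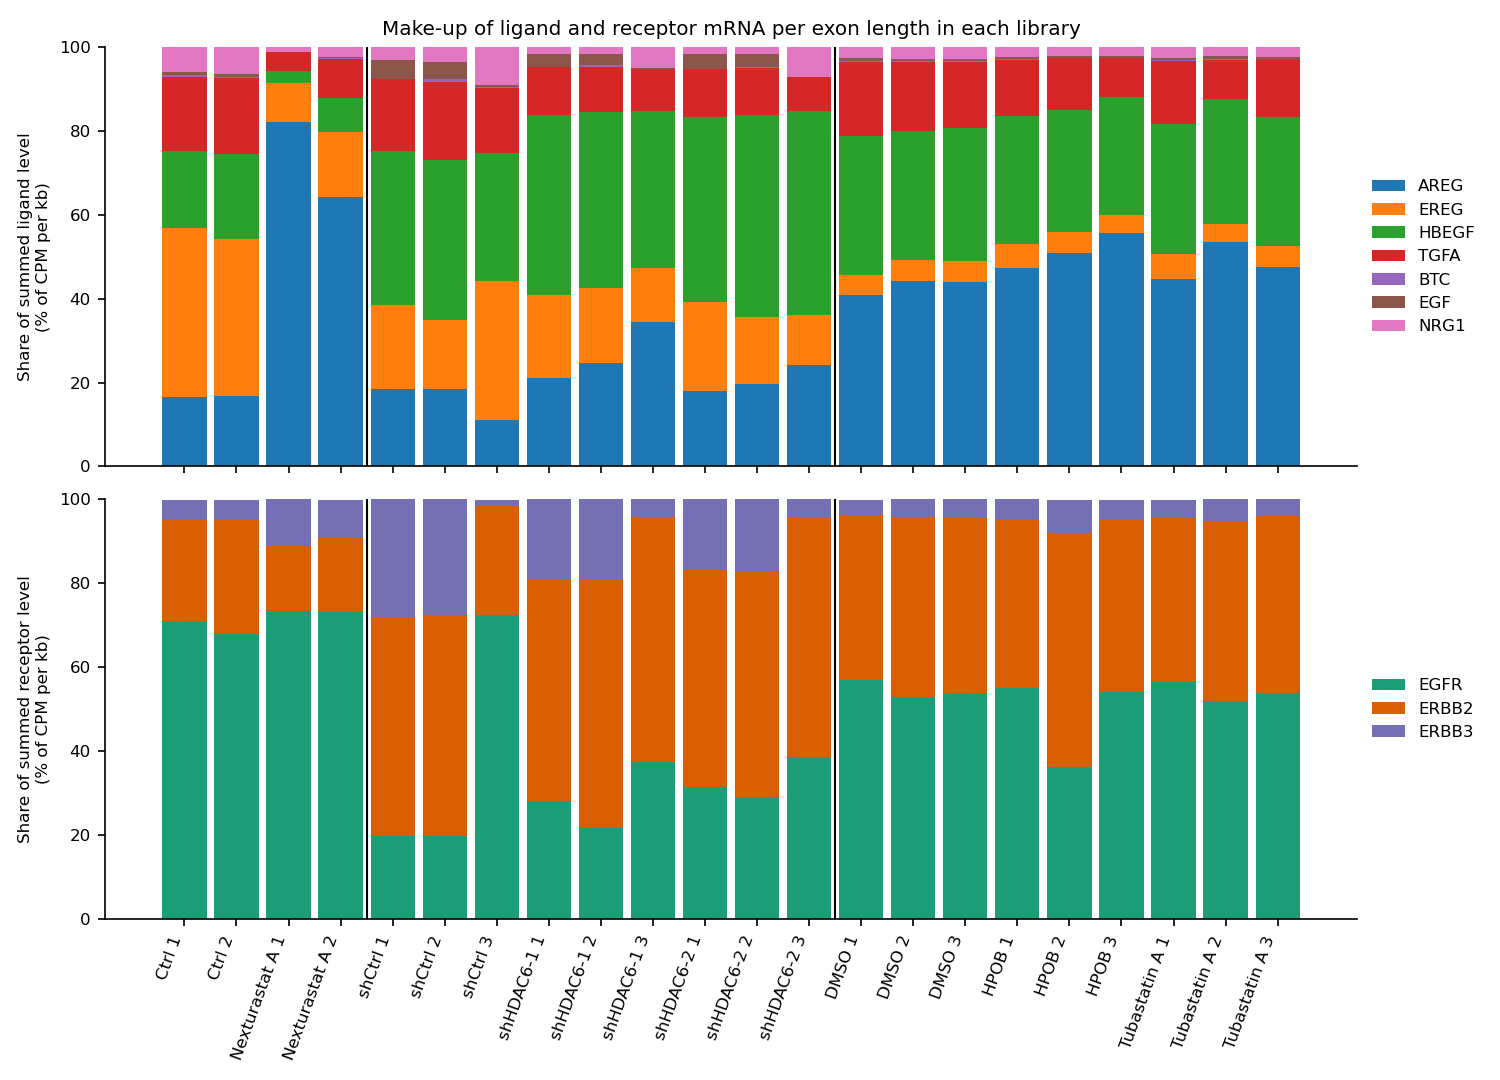
Share of each ligand in the summed ligand level (top) and of each receptor in the summed receptor level (bottom), in % of CPM per kb, with 1 bar per library and lines between experiments. AREG fills 64.3% and 82.2% of the ligand bar with Nexturastat A. EGFR lies below ERBB2 in replicates 1 and 2 of the knockdown experiment, in replicate 3 of both hairpins and in HPOB replicate 2. With the longest transcript as length, not drawn, it lies below ERBB2 in every library of the compound experiment.

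Nexturastat A was set against Ctrl to see what an HDAC6 inhibitor does to the first stock. AREG rose the most of the 10 genes, TGFA and ERBB3 rose less, and ERBB2 and BTC fell to about 0.48 of their Ctrl level. Thus 3 of the 10 genes were higher and 2 lower, where 36.6% of the 16678 genes tested were called (21.1% higher and 15.5% lower). Their median log2 fold change was 0.08, against 0.03 over all genes tested. Per length the ligands summed to 49.8 and 22.9 times the receptors in the treated libraries, with AREG at 82.2% and 64.3% of the ligand sum.

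AREG stood at 1466 and 613 CPM with Nexturastat A against 56.5 and 55.55 CPM in Ctrl, so both treated libraries lay more than 10 times above both controls although they differed from each other by over 2 times. The log2 fold change was 4.19 ± 0.50 (95% interval 2.84 to 5.55; adjusted p = 0.00705, edgeR quasi-likelihood test), or 18.3-fold. Without Nexturastat A replicate 1 it was 3.425 and without replicate 2 it was 4.69, and the call held in all 11 alternatives (highest adjusted p = 0.042). EREG, the neighbour 56 kb away, stood at 577 and 511 CPM against 479.6 and 429 CPM. Its groups did not overlap, but the change of 0.24 ± 0.14 did not pass the test (adjusted p = 0.215). It did pass with GC and length trends removed (0.448 ± 0.129, adjusted p = 0.0346). TGFA, another EGFR ligand, rose to 242 and 267 CPM from 183 and 180.5 CPM (0.46 ± 0.12, adjusted p = 0.0234). BTC, the rarest of the 10, fell to 1.01 and 1.302 CPM from 2.23 and 2.53 CPM (-1.07 ± 0.315, adjusted p = 0.0357). HBEGF (87.1 and 142 CPM), EGF (10.2 and 7.78 CPM) and NRG1 (140 and 165 CPM) overlapped their controls, with log2 fold changes of -0.08, 0.11 and 0.05.

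Of the receptor genes, ERBB2 fell to 35.0 and 45.9 CPM from 85.4 and 79.7 CPM, with no overlap (-1.05 ± 0.16, adjusted p = 0.00427, edgeR). ERBB3 rose to 21.6 and 20.95 CPM from 14.6 and 12.2 CPM (0.65 ± 0.17, adjusted p = 0.0246). EGFR stood at 199.6 and 232 CPM against 298 and 242 CPM and did not pass the test (-0.35 ± 0.15, adjusted p = 0.111). The count of 5 calls rests on single libraries. Without Ctrl replicate 1 or Ctrl replicate 2 it was 2 (AREG and ERBB2), with TGFA at an adjusted p = 0.218 and 0.239, ERBB3 at 0.124 and 0.272 and BTC at 0.145 and 0.214. Without Nexturastat A replicate 2 it was 8, with EREG (0.32), HBEGF (-0.47) and EGFR (-0.46) added, and without Nexturastat A replicate 1 BTC was lost (adjusted p = 0.0535), as it was with voom (adjusted p = 0.0508).

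The other genes of the pathway were counted in 5 lists, 58 genes of which 57 could be tested. In all 10 rose and 12 fell, with a median of -0.13, where 21.1% of all genes were higher and 15.5% lower. Early response genes, which are switched on by growth factor signals, had 7 of 13 higher and 2 lower. MYC, a growth-promoting transcription factor, stood at 204 and 173 CPM against 44.2 and 45.5 CPM (2.05 ± 0.14), and the AP-1 subunit JUNB at 205 and 132 CPM against 62.2 and 56.2 CPM (1.49 ± 0.21). Adaptors and effectors, which carry the signal inward, had 0 of 20 higher and 7 lower, among them the kinase subunit PIK3CA (14.5 and 20.4 CPM against 46.1 and 43.1 CPM, -1.38 ± 0.19) and the RAS activator SOS2 (48.3 and 58.8 CPM against 120.5 and 117 CPM, -1.17 ± 0.14). Negative regulators had 1 of 16 higher and 3 lower, with SPRY1, an inhibitor of RAS signalling, at 36.3 and 33.9 CPM against 83.5 and 78.7 CPM (-1.23 ± 0.13). Of the 4 genes of ligand shedding, RHBDF2, a carrier of ADAM17, rose (0.57 ± 0.14). The fourth receptor, ERBB4, rose from a low level, 3.29 and 1.79 CPM, to 11.3 and 6.47 CPM (1.78 ± 0.39, adjusted p = 0.0128).

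The compound experiment asks whether HPOB and Tubastatin A act on the same genes in another stock. None of the 10 was called by edgeR with either compound, where 0.0261% of 15338 genes were called with HPOB and 0% with Tubastatin A. At an unadjusted p under 0.05 there were 2 of the 10 with HPOB (AREG and EREG), where 1588 of 15338 genes were. With Tubastatin A there was 1 (AREG), where 757 of 15338 were. DESeq2 called 1 (AREG with HPOB) and 0, and voom 0 and 0. Both comparisons share the DMSO libraries.

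AREG stood at 85.35, 104 and 112 CPM with HPOB and 73.8, 100.4 and 79.9 CPM with Tubastatin A, against 65.85, 71.7 and 68.3 CPM in DMSO. Each treated library thus lay above each DMSO library. The log2 fold change was 0.54 ± 0.13 with HPOB (95% interval 0.26 to 0.82; adjusted p = 0.206, edgeR) and 0.31 ± 0.13 with Tubastatin A (0.03 to 0.59; adjusted p = 0.857). With HPOB it passed the threshold with DESeq2 (adjusted p = 0.0296) and without Tubastatin A replicate 2 (adjusted p = 0.0325), and the adjusted p ran from 0.0296 to 0.795 over 18 alternatives. With GC and length trends removed the values were 0.365 and 0.235. TGFA stood at 73.1, 77.0 and 55.8 CPM with HPOB and 75.5, 52.1 and 68.2 CPM with Tubastatin A, against 85.97, 80.7 and 73.7 CPM. Its groups overlapped, with changes of -0.235 ± 0.15 and -0.29 ± 0.15. HPOB replicate 3 and Tubastatin A replicate 2 had the highest AREG and the lowest TGFA of their groups. In these libraries and in HPOB replicate 2 the level relative to the other libraries fell with transcript length across genes (Spearman correlation -0.485, -0.563 and -0.481). In the other 6 it rose with length (0.068 to 0.504), by 0.382 in DMSO replicate 1 and 0.504 in Tubastatin A replicate 1. The part of these trends in the differences was not tested. Without HPOB replicate 3 and Tubastatin A replicate 2 together AREG had 0.45 with HPOB and 0.17 with Tubastatin A, and TGFA -0.11 and -0.16.

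EGFR stood at 165, 61.6 and 152 CPM with HPOB, against 177, 147 and 161 CPM in DMSO and 179.5, 132 and 169 CPM with Tubastatin A. HPOB replicate 2 thus fell far below every other library of the experiment. EGFR was 1 of 25 genes, of 11039 whose mean CPM reached 5, that lay in HPOB replicate 2 under 0.5 of their level in each of the other 8 libraries. No such gene was found in any other library, and none of the other 9 family genes was among the 25. The log2 fold change with HPOB was -0.37 ± 0.27 (adjusted p = 0.596), and without HPOB replicate 2 it was -0.04 ± 0.14. The same library had the highest ligand to receptor ratio, 9.13, against 4.56 and 5.43 in the other HPOB libraries and 3.93 to 4.41 in DMSO. ERBB2 was at 98.5, 78.2 and 94.6 CPM with HPOB and 103, 90.0 and 109 CPM with Tubastatin A, with changes of -0.17 and -0.002. ERBB3 (9.76 to 10.9 CPM with HPOB and 8.83 to 9.78 CPM with Tubastatin A, against 7.97 to 9.43 CPM) had 0.23 and 0.12. Of the remaining ligands, EREG had 0.25 and 0.16, HBEGF 0.15 and 0.07, NRG1 -0.10 and -0.08 and EGF 0.055 and 0.16. BTC was too rare for a close estimate (0.313 to 1.03 CPM with the compounds, with an interval of -1.37 to 0.97 with HPOB). Of the other pathway genes edgeR called 0 of 55 with each compound, and 12 with HPOB and 7 with Tubastatin A had an unadjusted p under 0.05. Over all 15338 genes tested 1588 and 757 did.

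HPOB and Tubastatin A could be compared directly on day 2, although their doses are not given and may differ. Of the 10 genes edgeR called 0, where 0% of genes were called (0 with DESeq2 and 0 with voom). At an unadjusted p under 0.05 there were 0 of the 10, where 481 of 15338 genes were. The difference, Tubastatin A less HPOB, was -0.23 (95% interval -0.51 to 0.05) for AREG, 0.36 (-0.22 to 0.94) for EGFR, 0.17 (-0.07 to 0.41) for ERBB2 and -0.055 (-0.38 to 0.27) for TGFA. These intervals do not show that the compounds act alike.

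The effect of Nexturastat A was then tested against that of each other compound, with each set against its own controls in 1 fit of 13 libraries. AREG differed most of the 10 genes, by 3.71 ± 0.365 from HPOB (adjusted p = 8.39e-06, edgeR) and 3.95 ± 0.37 from Tubastatin A (adjusted p = 4.24e-06). ERBB2 differed by -0.83 ± 0.19 (adjusted p = 0.0083) and -0.99 ± 0.19 (adjusted p = 0.00259), and TGFA by 0.75 ± 0.23 (adjusted p = 0.0334) and 0.81 ± 0.23 (adjusted p = 0.021). These were 3 of 10 genes in each test, where 17.5% (9.81% higher and 7.69% lower) and 19.1% (10.6% higher and 8.46% lower) of 17083 genes were. TGFA lost the first call without Ctrl replicate 1 or 2, Nexturastat A replicate 1 or 2, DMSO replicate 1 or 2 or HPOB replicate 3 (adjusted p = 0.0526 to 0.111), and the second without Ctrl replicate 1 or 2 or DMSO replicate 1 (0.0552 to 0.0795). ERBB3 gained a call against Tubastatin A with DESeq2 (adjusted p = 0.0339), voom (0.0353) and a filter at 5 CPM on the mean (0.0324), and HBEGF gained one in each test without Nexturastat A replicate 2 (0.0148 and 0.0307). The fit takes 1 spread per gene from all 13 libraries, while AREG ran from 372 to 889 CPM per kb in the Nexturastat A libraries. In the fit of the first experiment alone its SE was 0.50 (adjusted p = 0.00705, edgeR). The p-values of AREG here therefore understate the spread of the Nexturastat A group. Compound, dose and cell stock cannot be told apart in these tests.

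**Figure D3:**
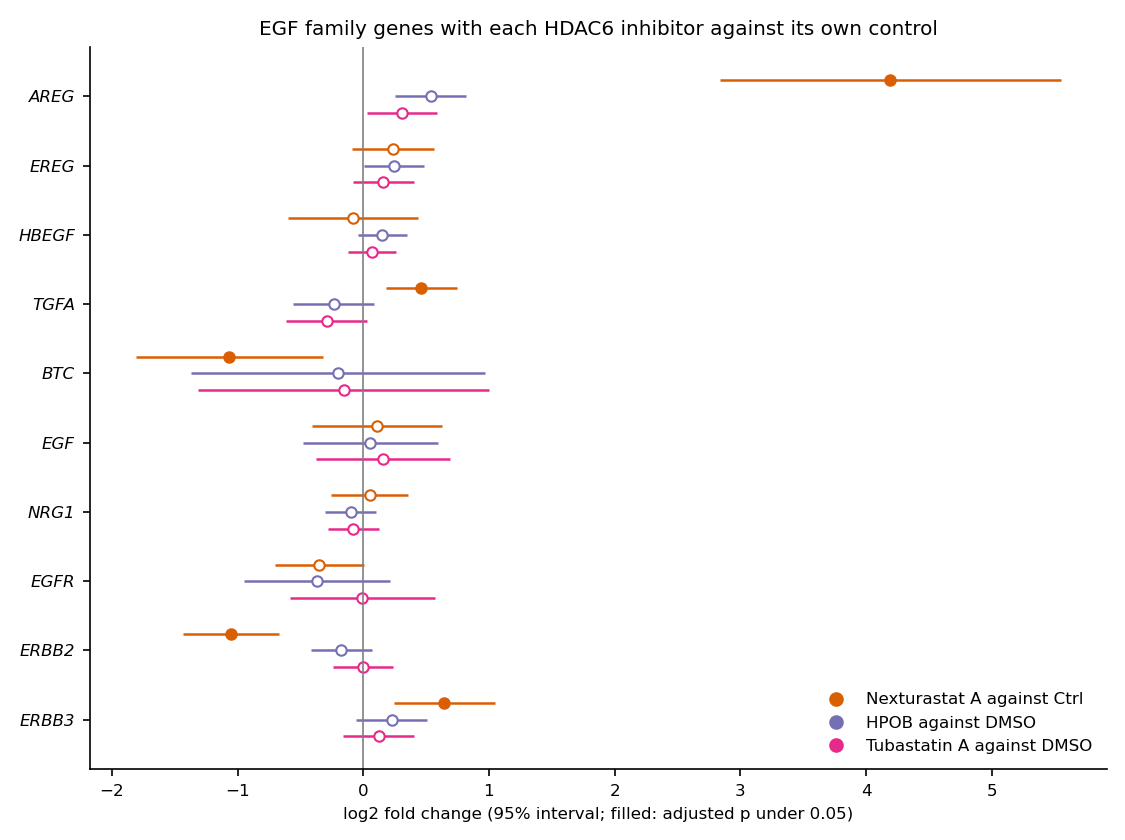
Log2 fold change of each gene with each inhibitor against its own control (points; filled where the adjusted p is under 0.05), with 95% intervals as bars. AREG lies at 4.19 with Nexturastat A against 0.54 with HPOB and 0.31 with Tubastatin A, and the filled points are those of Nexturastat A for AREG, TGFA, BTC, ERBB2 and ERBB3.

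The hairpins against HDAC6 were set against shCtrl to see what less HDAC6 does without a compound. In replicates 1 and 2, the libraries with CDKN2A and IRS4 mRNA, TGFA, NRG1 and ERBB3 fell with each hairpin, and EGFR rose with shHDAC6-2. These were 3 of 9 genes tested with shHDAC6-1, against a background of 30.5% of 17702 genes (15.3% up, 15.2% down), and 4 of 9 with shHDAC6-2, against 27.6% (14.4% up, 13.2% down). The medians of the 9 genes were -0.15 and -0.10, against -0.02 and 0.002 over all genes. Both comparisons share the shCtrl libraries.

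TGFA stood at 8.84 and 8.83 CPM with shHDAC6-1 and 7.68 and 7.76 CPM with shHDAC6-2, below the 13.3 and 13.8 CPM of shCtrl (-0.60 ± 0.15, adjusted p = 0.00452, and -0.78 ± 0.15, adjusted p = 0.000491, edgeR). NRG1, the ERBB3 ligand, stood at 2.87 and 3.37 CPM and at 2.71 and 2.68 CPM, against 5.83 and 6.03 CPM (-0.90 ± 0.20 and -1.10 ± 0.20). ERBB3 itself stood at 19.4 and 18.1 CPM and at 18.0 and 20.3 CPM, against 29.1 and 36.4 CPM (-0.785 ± 0.14 and -0.74 ± 0.14). For these 3 genes the hairpin and control libraries did not overlap. That held for 6 of the 10 genes with shHDAC6-1 and 7 with shHDAC6-2. The share over all genes was not counted, so neither count can be read as a trait of the family. EGFR stood at 46.3 and 47.6 CPM with shHDAC6-2, above the 28.4 and 36.1 CPM of shCtrl (0.58 ± 0.15, adjusted p = 0.00527), but at 39.2 and 28.7 CPM with shHDAC6-1, which overlapped the control (0.10 ± 0.15). The difference between the hairpins in EGFR was 0.48 ± 0.15 (adjusted p = 0.775, edgeR), and it passed the threshold without shCtrl replicate 2 (adjusted p = 0.0407). Between the hairpins 0 of 9 genes were called, where 0% of genes were (0 with DESeq2 and 0 with voom). At an unadjusted p under 0.05 there were 2 of the 9, where 1107 of 17702 genes were.

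AREG, which led the response to Nexturastat A, stood at 5.45 and 6.76 CPM with shHDAC6-1 and 4.06 and 4.48 CPM with shHDAC6-2, against 4.76 and 4.55 CPM (0.41 ± 0.19 and -0.09 ± 0.19, neither called). EREG (0.13 and -0.10), HBEGF (0.28 and 0.19), EGF (-0.47 and -0.47) and ERBB2 (-0.15 and -0.015) were not called with either hairpin in the fit without trend removal. BTC was too rare to test, at 0 in replicate 1 of each hairpin, where a floor of 3 counts allows up to 0.0552 and 0.0445 CPM. The call of TGFA with shHDAC6-1 was lost without its replicate 2 (adjusted p = 0.0526). With all 9 knockdown libraries in 1 fit none of the 10 genes was called and the signs of TGFA and NRG1 with shHDAC6-1 (0.24 and 0.09) and of NRG1 and EGFR with shHDAC6-2 (0.50 and -0.53) turned. In replicate 3 by itself these went the other way. That fit takes no account of the replicate, although libraries with the same number deviated together in it (correlations of 0.472 to 0.925). Replicate 1 of a group and replicate 2 of another did so too (0.374 to 0.836), while replicate 3 went against both (-0.889 to -0.437). With the replicate number as a block, a setting chosen after seeing the data, again none was called, and the values were -0.299 for TGFA and -0.633 for NRG1 with shHDAC6-1 and -0.586 for NRG1 and -0.015 for EGFR with shHDAC6-2.

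Among the other pathway genes, 17 of 56 rose and 7 fell with shHDAC6-1, and 17 rose and 5 fell with shHDAC6-2, where 15.3% and 14.4% of all genes were higher and 15.2% and 13.2% lower. Early response genes had 4 of 13 higher and 1 lower with shHDAC6-1, and 3 higher and 0 lower with shHDAC6-2. Negative regulators had 7 of 16 higher and 3 lower with shHDAC6-1, and 8 higher and 2 lower with shHDAC6-2. Of these, ERRFI1, a direct inhibitor of EGFR, rose (0.99 ± 0.12 and 0.91 ± 0.12), as did LRIG3 (0.91 ± 0.12 and 0.92 ± 0.12). The ubiquitin ligases CBLB, which acts on EGFR (-1.24 ± 0.17 and -1.41 ± 0.17), and RNF41, which acts on ERBB3 (-1.14 ± 0.13 and -1.15 ± 0.13), fell. RHBDF2 fell as well (-0.99 ± 0.15 and -0.74 ± 0.15). In these libraries the change followed GC content across genes (Spearman correlation -0.434 and -0.312). With GC and length trends removed TGFA, NRG1 and ERBB3 stayed called with each hairpin and EGFR with shHDAC6-2. Calls were gained there for HBEGF (0.29, adjusted p = 0.0154) and EGF (-0.601, adjusted p = 0.0183) with shHDAC6-1, and for EREG (-0.268, adjusted p = 0.0397) and EGF (-0.617, adjusted p = 0.0147) with shHDAC6-2.

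Replicate 3 has 1 library a group, so its ratios carry counting intervals and no test. Its shCtrl library held CDKN2A at 0 CPM and its hairpin libraries at 8.84 and 29.1 CPM. The part of this difference in the ratios was not tested. AREG stood at 158 CPM with shHDAC6-1 and 106 CPM with shHDAC6-2 against 24.8 CPM in shCtrl, ratios of 6.34 (95% counting interval 6.01 to 6.70) and 4.26 (4.02 to 4.51). HBEGF stood at 313 and 388.5 CPM against 126 CPM, ratios of 2.48 and 3.08. EGFR was lower, at 109 and 113 CPM against 233 CPM, ratios of 0.467 (0.454 to 0.480) and 0.484 (0.469 to 0.499). ERBB2 stood at 140 and 138 CPM against 69.0 CPM and ERBB3 at 8.93 and 8.66 CPM against 3.67 CPM, so that EGFR made up 37.4% and 38.5% of the receptor sum, against 72.4% in shCtrl. The ligand to receptor ratio was 11.9 and 11.3, against 5.33, and with the longest transcript 8.83 and 8.48, against 4.66. Neither the shares nor the ratio were recomputed with GC and length trends removed. Removing those trends moved ERBB2 and EGFR, as given below. EREG had ratios of 0.793 and 0.701, TGFA 1.31 and 0.981, NRG1 1.11 and 1.49, EGF 0.601 and 0.385 and BTC, with 9 and 19 counts against 60, 0.134 and 0.401. In all, 4 of the 10 genes were past 2-fold higher and 2 lower with shHDAC6-1, and 4 higher and 3 lower with shHDAC6-2. Of all genes with at least 50 counts, 61.7% and 59.1% passed 2-fold (28.6% and 26.1% higher, 33.1% and 33% lower), so these counts are near the background.

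**Figure D4:**
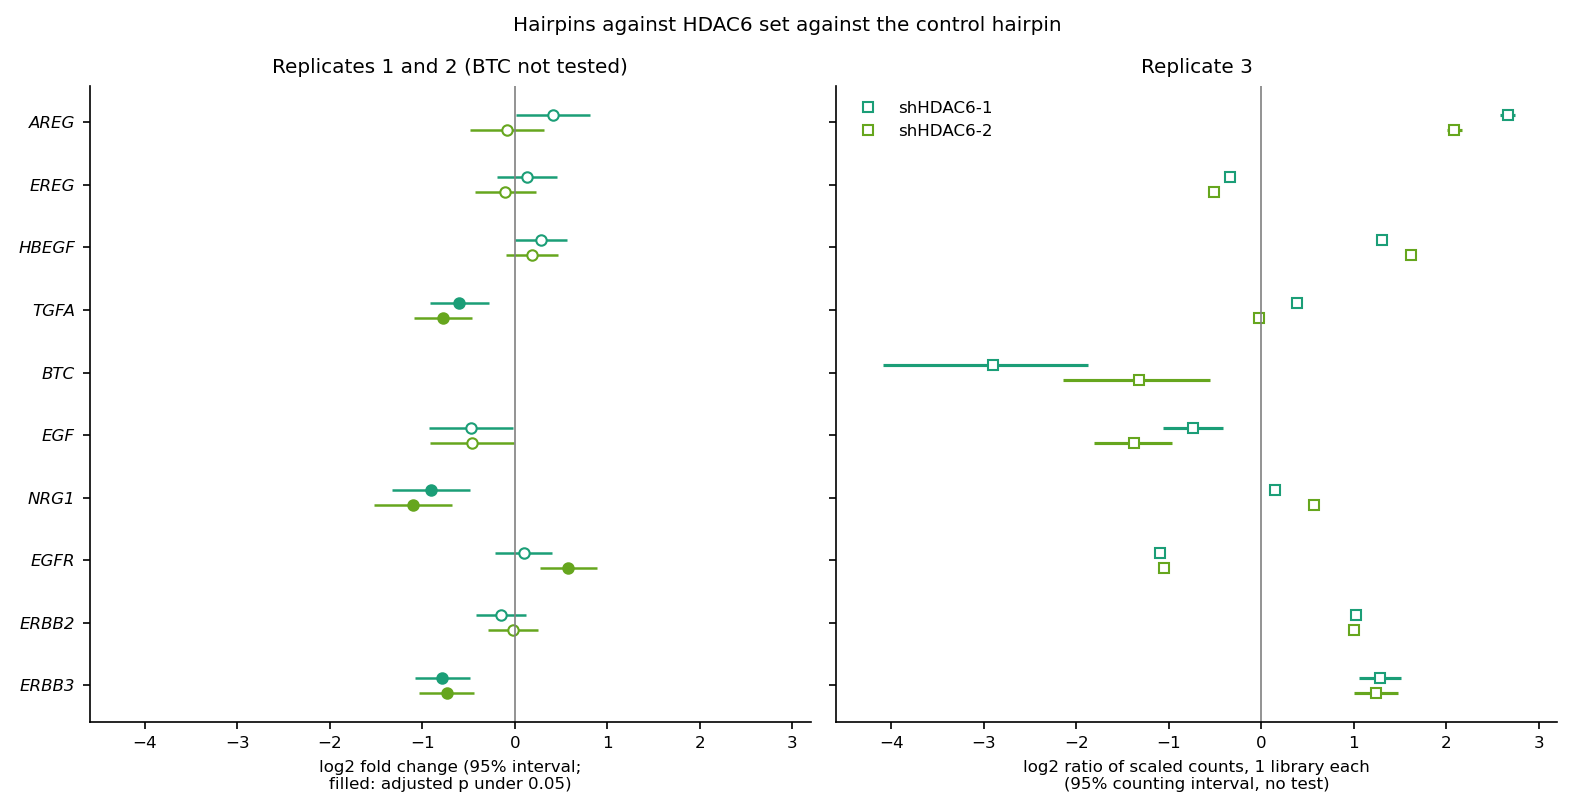
Each gene with each hairpin against shCtrl, on the left as log2 fold change in replicates 1 and 2 with 95% intervals (filled: adjusted p under 0.05) and on the right as log2 ratio of single libraries in replicate 3 with 95% counting intervals. ERBB3 lies at -0.785 and -0.74 on the left and at 1.28 and 1.24 on the right.

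In replicate 3 the ratios of all genes moved with GC content (Spearman correlation across genes 0.812 and 0.796). With shHDAC6-1 the median log2 ratio was -2.28 in the lowest of 5 equal bins of GC content and 1.39 in the top bin. ERBB2 has a GC content of 57.5%, ERBB3 52.0% and HBEGF 50.9%, while EREG has 36.1%, and the level of CDKN2A also differed between these libraries. With GC and length trends removed, a setting chosen after seeing the data, AREG kept ratios of 8.48 and 5.78 and HBEGF of 1.80 and 2.24. EREG went to 4.76 and 4.54 and ERBB2 to 0.981 and 0.987, both across 1. EGFR moved to 0.7925 and 0.778, NRG1 to 2.557 and 3.351, TGFA to 2.098 and 1.541 and EGF to 1.34 and 0.939. ERBB3, past 2-fold without trend removal, moved to 1.861 and 1.773.

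**Figure D5:**
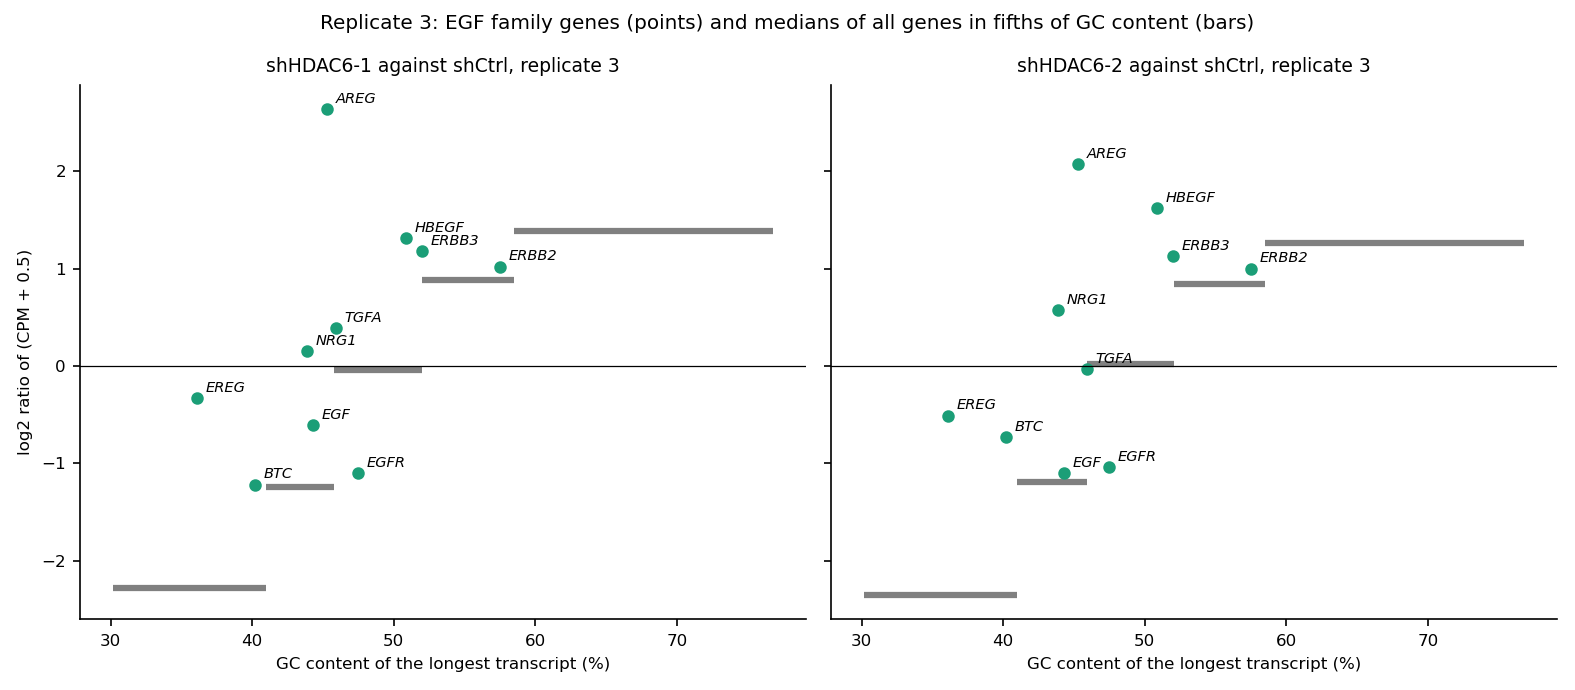
Log2 ratio of (CPM + 0.5) in replicate 3 of each hairpin against shCtrl, by GC content of the longest transcript (%), with points for the family genes and bars for the medians of all genes in 5 equal bins of GC content. The bars climb from -2.28 to 1.39 with shHDAC6-1, and AREG, at a GC content of 45.3%, lies far above the bars beside it.

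Over the 22 libraries, the genes most like AREG in log2 CPM were IGFBP3 (Pearson r = 0.976), RAB20 (0.972) and HCFC1R1 (0.958), out of 11536 genes. Those most like EGFR were GALNT10 (0.969), MTCL1 (0.954) and SRGAP1 (0.951), and those most like ERBB3 were CCDC113 (0.956), NMRK1 (0.931) and DOC2A (0.923). The libraries share stocks that stand apart, so these values describe the stocks as much as the groups, and they carry no test.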

How the data were processed

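RNA was measured by bulk sequencing in 22 libraries. The deposited values are raw read counts per gene symbol, with 1 table per library. The authors used Trim Galore 0.6.7, STAR 2.7.9a, featureCounts 2.0.3, DESeq2 1.30.1 and the build GRCh38, per the submitters' processing notes; the annotation and strand setting are unknown from the sources used here. Of 26485 symbols 23899 were matched to GENCODE release 29, and 0 rows named no gene. Samples were grouped by their titles, or by the treatment label for Tubastatin A.

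Levels are CPM with 1 TMM scaling of all 22 libraries. Each experiment was fitted in edgeR 4.0.16 (R 4.3.3; TMM, filterByExpr by group with a minimum count of 10 and total of 15, robust quasi-likelihood F test), and a gene is called where its p, adjusted by Benjamini and Hochberg over all genes tested, is under 0.05. Fold changes come with the SE of the fit. Replicate 3 ratios have exact binomial intervals (95%), which, like the floor of 3 counts, cover counting error only, because without molecular identifiers several reads can stem from 1 molecule. Scripts were tested on simulated data.

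The 10 genes, the lists, the separation of replicate 3 and the tests were chosen with earlier results of these data known. The text names the 10 genes, HDAC6, at most 3 called pathway genes at each end of a comparison, RHBDF2 under Nexturastat A (the single call of its list, chosen after its values were seen), and the 3 genes most like AREG, EGFR and ERBB3. A pathway gene that this rule names is not reported here. Alternatives were DESeq2 1.42.0, limma 3.58.1 voom, other filters, a replicate block, trend removal, other sets of libraries and other lengths. Nothing in the labels shows that replicates are separate cultures, so p-values measure the spread between these libraries, which may be technical. Among 20 pairs of replicates none were identical or agreed within sampling noise. Residuals of libraries with the same replicate number correlated at 0.091 in the first experiment, -0.041 to 0.143 in knockdown replicates 1 and 2 and -0.149 to 0.178 in the compound experiment, so in these sets the numbers were not taken to pair libraries.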

Additional observations from a re-analysis of the deposited data

Results flagged for a closer look

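The effect of Nexturastat A differed from that of HPOB, by the interaction term, for AREG (log2 difference 3.71), TGFA (0.75) and ERBB2 (-0.83). It differed from that of Tubastatin A for AREG (3.95), TGFA (0.81) and ERBB2 (-0.99). Compound, dose and cell stock cannot be told apart in these values.

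In 2 of the 10 genes each hairpin library of replicates 1 and 2 moved one way from shCtrl and each hairpin library of replicate 3 the other way. The share of all genes that did so was not counted, so this count cannot be read as a trait of the family. The difference between the mean log2 ratios, replicates 1 and 2 less replicate 3, was -1.39 for NRG1 and -2.04 for ERBB3. This difference was not tested, since replicate 3 has 1 library a group. Across genes the change followed GC content with Spearman correlations of -0.434 and -0.312 in replicates 1 and 2 and 0.812 and 0.796 in replicate 3. NRG1 with shHDAC6-1 in replicate 3 had a ratio of 1.11, and of 0.937 by library totals. With GC and length trends removed the replicate 3 ratios were 2.557 and 3.351 for NRG1 and 1.861 and 1.773 for ERBB3.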

How the results depend on the processing

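Over 107 comparisons of single genes, 1653 values were recomputed under the alternatives: 1598 kept their side of the threshold with no called value turning, 34 lost the call, 16 gained one and 5 turned. Of these, 4 come from the fit of all 9 knockdown libraries: TGFA 0.236 and NRG1 0.093 with shHDAC6-1, NRG1 0.497 and EGFR -0.529 with shHDAC6-2. The other is EGFR with shHDAC6-2 when that fit has a replicate block (-0.015), an alternative chosen after seeing the data. Both fits called 0 genes, and 0 of the 10, with either hairpin. In replicate 3, trend removal turned EREG (ratios 4.764 and 4.537), ERBB2 (0.9806 and 0.9872), EGF with shHDAC6-1 (1.34) and TGFA with shHDAC6-2 (1.541), and scaling by library totals turned NRG1 with shHDAC6-1 (0.9372). The causes were not tested.

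Calls over all genes moved as follows. Nexturastat A had 6112, and 3586 with a filter at 5 CPM on the mean; leaving out 1 library gave 1781 to 8922 (2 to 8 of the 10 genes). With shHDAC6-1 leaving out 1 library gave 3160 to 5999, and trend removal 7459 (5 of the 10); with shHDAC6-2 trend removal gave 7369 calls in all. Between the hairpins there were 12 with no filter, 1 with voom, 57 with the 2 groups alone and 1 to 66 without 1 library (at most 1 of the 10). With HPOB there were 4 calls, 120 with DESeq2 (1 of the 10), 14 with no filter, 2 with a filter at 5 CPM on the mean, 51 with voom, 22 with trends removed, 15 with the 2 groups alone, 20 without HPOB replicate 3 and Tubastatin A replicate 2, and 0 to 78 without 1 library (at most 1 of the 10). With Tubastatin A there were 0, 23 with DESeq2, 21 with voom and 3 with trends removed. The interactions gave 1603 to 3950 calls (HPOB) and 1857 to 4262 (Tubastatin A) without 1 library.

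The replicate numbers were not taken to pair libraries. With a replicate block HPOB had 7 calls instead of 4, and no call on the 10 genes changed in the 9 comparisons fitted with it; those between control groups were not. A depth of 31.2 M counts (M, mega) or more leaves BTC, at most 2.53 CPM, as the gene of this family most limited by counting.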
